A study of Rattus norvegicus with 2 samples.

Results

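Notch signalling passes between touching cells. Ligands of the Delta-like and Jagged families on one cell bind Notch receptors on its neighbour, proteases of the ADAM family and γ-secretase then release the intracellular part of the receptor, and this fragment joins the DNA-binding protein RBPJ in the nucleus to switch on target genes of the Hes and Hey families and *Nrarp*, a feedback inhibitor. In the heart the pathway is known for its part in arterial endothelium, in the sprouting of vessels and in the mural cells (pericytes and smooth muscle) that coat them. The members were followed by symbol here, 9 of the 25399 genes in the count tables: the ligands *Dll4* and *Jag1*, the receptors *Notch1*, *Notch3* and *Notch4*, and the targets *Hes1*, *Hey1*, *Heyl* and *Nrarp*.

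The cells came from hearts of Sprague-Dawley rats aged 1 to 3 days, pooled from males and females, and were enriched on a Percoll gradient for intrinsic cardiac adrenergic (ICA) cells, a catecholamine-making cell type of the heart. They were kept for 2 h with lipopolysaccharide (LPS, a bacterial cell wall component) at 1 µg/ml or with saline as the control. The same protocol of digestion, gradient and culture is described for both groups, and whether the same preparation was split between them is not stated. Each condition gave 1 single-cell library of the 10X Genomics 3′ kind, with animals pooled, so there were no replicates and no test was made. A difference between the libraries therefore includes any difference in their handling, and the effect of LPS and that of the library cannot be told apart.

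Levels are unique molecular identifiers (UMIs, one per captured RNA molecule) summed over the cells of a cluster per 1000000 UMIs of that cluster, written CPM. Intervals are 95% exact intervals and cover counting error only. The control library held 11531 cells with a median of 12479 UMIs and the LPS library 12689 cells with a median of 9432, and 194 cell barcodes occurred in both. The authors' 11 clusters were used with their names: Fibroblast for clusters 0, 1 and 7, ICA and Cardiomyocyte for cluster 3, Endothelial for clusters 4 and 5, Macrophages for cluster 6, and no cell type for clusters 2, 8, 9 and 10. Although both samples are labelled as ICA cells, cluster 0 alone held 6600 control and 7030 LPS cells. *Th*, which encodes the first enzyme of catecholamine synthesis, had 0 UMIs in cluster 3 in either library (a count that allows up to 0.424 CPM in control and 0.547 CPM in LPS cells), while *Dbh*, a later enzyme, had 180 and 136 there. Fibroblast markers were present in all clusters at no less than 1979 CPM for 7 genes summed. Genes of the LPS response were higher in the LPS library in each cluster, with 306 CPM (control) and 3088 CPM (LPS) for 6 genes summed in cluster 3, and 5324 and 28493 CPM in the macrophages of cluster 6.

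Cluster 2 was led by *Rgs5*, *Ndufa4l2*, *Kcnj8*, *Actg2* and *Higd1b*, and 4 of its 10 leading genes (*Rgs5*, *Kcnj8*, *Higd1b*, *Abcc9*) belong to a list of pericyte markers, so it is called pericyte-like here. The 7 pericyte markers summed to 1278 CPM in its control cells, against 265 CPM in cluster 4 and 231 CPM in cluster 0. The 5 smooth muscle markers were also highest in cluster 2, at 2492 CPM in control cells. They summed to 250 CPM in cluster 4 and 731 CPM in cluster 0, so the name does not set pericytes apart from smooth muscle. The 9 endothelial markers measured summed to 2573 CPM in cluster 4 and 1682 CPM in cluster 5 of the control library, against 110 CPM in cluster 0. Both endothelial clusters together made up 9.31% of cells in the control library and 9.98% in the LPS library.

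The target genes are those that the receptor fragment and RBPJ are known to switch on. The bases just before the start of 3 of them are shown, and binding of RBPJ was not measured. They come from RefSeq promoters on the rat build GRCr8, 300 bases a gene, in which 7 of the 9 members had an entry (*Dll4* and *Hey1* are named only). Each line holds the 150 bases before the start, 5′ to 3′ on the gene's strand, and capitals mark the RBPJ core TGGGAA or its reverse TTCCCA.
Hes1, chr11:84213046-84213195, minus strand: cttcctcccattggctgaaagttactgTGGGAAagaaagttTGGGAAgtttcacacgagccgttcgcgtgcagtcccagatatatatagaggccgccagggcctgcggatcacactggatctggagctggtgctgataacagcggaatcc
Heyl, chr5:140793121-140793270, plus strand: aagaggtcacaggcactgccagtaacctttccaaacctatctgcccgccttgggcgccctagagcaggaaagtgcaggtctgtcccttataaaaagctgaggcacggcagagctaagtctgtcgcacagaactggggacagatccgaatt
Nrarp, chr3:28390595-28390744, plus strand: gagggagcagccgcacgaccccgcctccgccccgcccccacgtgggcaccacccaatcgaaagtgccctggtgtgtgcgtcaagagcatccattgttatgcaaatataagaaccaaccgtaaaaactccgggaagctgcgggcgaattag
*Hes1* held 2 cores, starting 123 and 109 bases before its start. *Notch4* also held 2 in its 300 bases, *Notch3* held 1 and the other 4 members held none. Of all 33469 promoters of that length, 25.7% held at least 1 core and 3.85% at least 2, so 3 of 7 members with a core is a description of these letters only.

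*Dll4* (ENSRNOG00000014011), the ligand of arterial and sprouting endothelium, was concentrated in endothelial cluster 4. Its level there was 26.0 CPM (23.1 to 29.2) in the control library and 25 CPM (21.9 to 28.3) in the LPS library, and the intervals overlap. The other endothelial cluster, cluster 5, had 2.12 CPM in control and 5.27 CPM in LPS cells, from 9 and 24 UMIs, so that cluster 4 was 12.3-fold (6.37 to 27.1) above cluster 5 in control and 4.73-fold (3.11 to 7.53) in LPS cells. Fibroblast cluster 0 had 0.994 and 0.759 CPM, and clusters 1, 2, 3 and 6 lay between 0.595 and 2.89 CPM. The level in control cells of cluster 0 was 3.83% of that in cluster 4, where the 9 endothelial markers summed to 4.29% of theirs, with single markers from 2.04% to 11.3%. Clusters 4 and 5 together gave 68.2% of the *Dll4* UMIs of the control library and 75.9% of those of the LPS library.

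To compare cells at equal depth, 3000 UMIs were drawn from every cell (called thinning here). A *Dll4* UMI then appeared in 7.61% (5.78 to 9.79) of control and 6.16% (4.59 to 8.06) of LPS cells of cluster 4. Without thinning these shares were 25.2% and 21.1%. In fibroblast cluster 0 the thinned shares were 0.348% in control and 0.185% in LPS cells, and the source of these *Dll4* UMIs was not tested. Median depth was 12968 and 9822 UMIs in cluster 0, and 12499 and 9972 UMIs in cluster 4.

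*Jag1* (ENSRNOG00000007443), a ligand used by mural and endothelial cells, was spread over more clusters. In the control library it was highest in the pericyte-like cluster 2, at 45.7 CPM (41.5 to 50.2), which was 3.34-fold (2.77 to 4.05) above cluster 4 and 4.07-fold (3.62 to 4.56) above cluster 0. Levels in clusters 0, 1, 4, 5 and 6 of the control library lay between 10.3 and 13.7 CPM, and those of clusters 4 and 5 differed by a ratio of 1.12 (0.810 to 1.56). In the LPS library cluster 2 stood at 23.2 CPM (20.1 to 26.7), which is 0.508 (0.427 to 0.603) of the control level. Cluster 2 and cluster 4 then lay close together, at a ratio of 1.19 (0.969 to 1.46).

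The macrophages of cluster 6 went the other way. Their *Jag1* level was 10.3 CPM (7.03 to 14.5) in control and 39.8 CPM (32.4 to 48.5) in LPS cells, from 32 and 99 UMIs, a ratio of 3.88 (2.58 to 5.97), and in the LPS library this was the highest *Jag1* level of the 11 clusters. Thinned shares of macrophages with a *Jag1* UMI were 2.49% (1.01 to 5.07) and 11.7% (8.26 to 16), or 8.54% and 19.6% without thinning, against 1.79% and 1.30% in cluster 3 at median depths of 7526 and 5269 UMIs (8846 and 6900 in cluster 6). In the same cells the 9 endothelial markers summed to 174 CPM in control and 220 CPM in LPS, the 7 pericyte markers to 144 and 79.7 CPM and the 7 fibroblast markers to 3500 and 2702 CPM. The endothelial list moved in the direction of *Jag1*, and its part in the result was not tested. In cluster 4 *Jag1* was also higher in the LPS library, 19.5 against 13.7 CPM (ratio 1.43, 1.15 to 1.78), while cluster 0 had 11.2 and 11.6 CPM (ratio 1.04, 0.945 to 1.14). Fibroblast cluster 1 had 13.0 and 9.98 CPM, with a ratio of 0.766 (0.638 to 0.917).

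**Figure D1:**
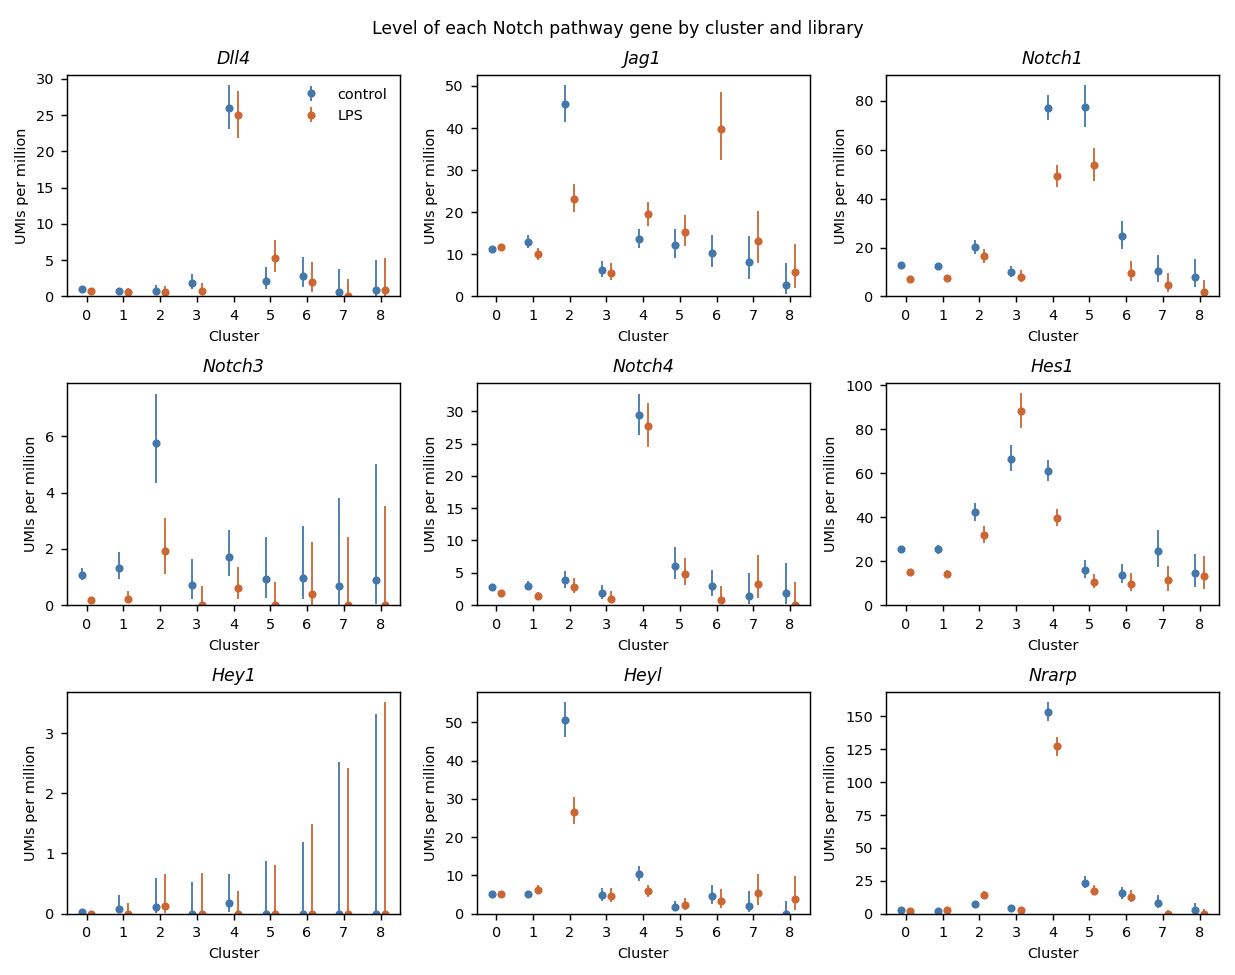
Level of each of the 9 Notch pathway genes (y axis, CPM, linear, a scale per panel) in clusters 0 to 8 (x axis) of the control and LPS libraries; points are levels and bars 95% Poisson intervals, and clusters 9 and 10, with under 70 cells a library, are left out. *Dll4*, *Notch4* and *Nrarp* peak in cluster 4, *Heyl* and *Notch3* in cluster 2, and *Hes1* in cluster 3.

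*Notch1* (ENSRNOG00000019322), the main Notch receptor of endothelium, had overlapping levels in both endothelial clusters. Control cells held 77.2 CPM (72.1 to 82.6) in cluster 4 and 77.7 CPM (69.5 to 86.5) in cluster 5, a ratio of 0.994 (0.875 to 1.13). Among clusters 0 to 6, next came the macrophages with 24.7 CPM and cluster 2 with 20.1 CPM, whose intervals overlap, and then clusters 0, 1 and 3 between 10.0 and 12.8 CPM. The LPS library was lower in 11 of 11 clusters, with an interval below 1 in 5 of them. Cluster 4 stood at 49.1 CPM (44.8 to 53.7) in LPS cells (ratio 0.636, 0.567 to 0.712) and cluster 5 at 53.6 CPM (47.1 to 60.8; ratio 0.690, 0.583 to 0.817). The ratio was 0.544 (0.489 to 0.604) in cluster 0 and 0.391 (0.236 to 0.624) in cluster 6, where 77 and 24 UMIs were counted. In the pericyte-like cluster 2 it was 0.819 (0.652 to 1.03), an interval that includes 1. The log2 ratio in cluster 4 was -0.65 over summed UMIs and -0.60 as the mean of the cells' own levels, both past 1.5-fold. It was short of 1.5-fold after thinning (-0.32), without cells that carried markers of another class (-0.47), and at -0.57 both without the 8% of cells with the most UMIs and when scaled to the median gene. The first 2 of these values lay outside the counting interval over summed UMIs. Thinned shares of cells of cluster 4 with a *Notch1* UMI were 13.7% (11.3 to 16.4) in control and 11.9% (9.76 to 14.4) in LPS cells, and the intervals overlap. Without thinning they were 45.9% and 33.9%.

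*Notch4* (ENSRNOG00000000442), a receptor of endothelium, separated the endothelial clusters as *Dll4* did. Cluster 4 held 29.4 CPM (26.3 to 32.8) in control and 27.7 CPM (24.5 to 31.2) in LPS cells, against 6.12 and 4.83 CPM in cluster 5, which is 4.80-fold (3.22 to 7.47) and 5.74-fold (3.71 to 9.31) lower. The ratio of LPS to control in cluster 4 was 0.944 (0.800 to 1.11). Of the cells of cluster 4, 7.33% of control and 7.66% of LPS cells held a *Notch4* UMI after thinning. In cluster 0 the levels were 2.75 and 1.79 CPM (ratio 0.650, 0.523 to 0.806) and in cluster 1 they were 2.91 and 1.39 CPM (ratio 0.477, 0.296 to 0.749). The control level of cluster 0 was 9.36% of that of cluster 4, within the range of the single endothelial markers given above.

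*Notch3* (ENSRNOG00000004346), the receptor known for mural cells, was sparse, with 218 UMIs in the whole control library and 39 in the LPS library. Its highest level was in the pericyte-like cluster 2, with 5.77 CPM (4.33 to 7.52) in control and 1.90 CPM (1.09 to 3.09) in LPS cells, from 54 and 16 UMIs, a ratio of 0.330 (0.177 to 0.586). In control cells cluster 2 was 5.32-fold (3.75 to 7.5) above cluster 0. Cluster 0 held 98 UMIs in control and 12 in LPS cells (1.08 and 0.163 CPM, ratio 0.150, 0.0751 to 0.274), and over all cells the ratio was 0.214 (0.148 to 0.302). No cluster had a higher level in the LPS library, and 10 of 11 had a lower one, with an interval below 1 in 4 of them. Clusters 3 and 5 had 5 and 4 UMIs in control and 0 in LPS cells, counts that allow up to 0.547 and 0.659 CPM. In cluster 2 the 7 pericyte markers summed to 1278 CPM in control and 1043 CPM in LPS cells, a smaller difference in the same direction, and its part in the *Notch3* result was not tested.

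*Nrarp* (ENSRNOG00000009354), the feedback inhibitor, peaked in cluster 4. It stands ninth among the leading genes of that cluster, so its height there is a property of how the cells were clustered and is given as a description. Control cells of cluster 4 held 153 CPM (146 to 161) and LPS cells 127 CPM (120 to 134), a ratio of 0.829 (0.770 to 0.892). Cluster 5 followed with 23.5 and 17.4 CPM and cluster 6 with 15.4 and 12.9 CPM, and cluster 0 had 2.55 and 1.84 CPM (ratio 0.722, 0.580 to 0.897). Of all *Nrarp* UMIs, 80.1% (control) and 78.9% (LPS) lay in clusters 4 and 5. A *Nrarp* UMI was seen in 31.3% (27.9 to 34.8) of control and 26.9% (23.8 to 30.1) of LPS cells of cluster 4 after thinning (67.5% and 57.6% without), against 0.909% and 0.541% in cluster 0.

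In the pericyte-like cluster 2 *Nrarp* was higher with LPS. It held 7.37 CPM (5.73 to 9.32) in control and 14.3 CPM (11.8 to 17.1) in LPS cells, from 69 and 120 UMIs, a ratio of 1.94 (1.43 to 2.65). Thinned shares of cells with a UMI were 2.02% (1.30 to 2.99) and 3.80% (2.86 to 4.94), or 4.97% and 7.11% without thinning. The 9 endothelial markers in these cells summed to 156 CPM in control and 113 CPM in LPS cells. Without cells of cluster 2 that carried at least 2 endothelial markers, the log2 ratio of *Nrarp* was 0.87, against 0.96 in all its cells. Beyond leaving out these cells, the part of endothelial RNA in the *Nrarp* result was not tested.

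*Hes1* (ENSRNOG00000001720), a transcriptional repressor that answers to Notch and to other signals, was found in all clusters and peaked in cluster 3, which holds the cardiomyocytes. There the level was 66.7 CPM (60.8 to 73.0) in control and 88.3 CPM (80.6 to 96.5) in LPS cells (LPS to control 1.32, 1.16 to 1.51). Endothelial cluster 4 held 61.0 CPM (56.5 to 65.8) in control cells. The ratio of cluster 3 to cluster 4 was 1.09 (0.969 to 1.23), so their order in CPM is not resolved in the control library. CPM counts mitochondrial UMIs, whose median share was 17.9% in control cells of cluster 3 and 3.71% in those of cluster 4. The comparison of these clusters was not repeated without mitochondrial genes. In LPS cells cluster 4 stood at 39.7 CPM (35.8 to 43.8) and cluster 3 was 2.23-fold (1.94 to 2.55) above it. The other large clusters were lower with LPS too: the ratio was 0.590 (0.549 to 0.634) in cluster 0, 0.555 (0.480 to 0.640) in cluster 1, 0.752 (0.641 to 0.880) in cluster 2 and 0.650 (0.572 to 0.737) in cluster 4. Cluster 5 had 16 and 10.5 CPM, from 68 and 48 UMIs (ratio 0.659, 0.446 to 0.968), and after thinning its direction turned, with a log2 ratio of 0.27.

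In cluster 3, 19.9% (17.2 to 22.7) of control and 23.8% (21.0 to 26.6) of LPS cells held a *Hes1* UMI after thinning, whereas the shares without thinning were 38.9% and 37.9%, in the opposite order. The macrophages, at 2.14% and 2.07%, were the class with few such cells. In cluster 3 the 7 cardiomyocyte markers summed to 6660 CPM in control and 7091 CPM in LPS cells, the 9 endothelial markers to 148 and 134 CPM and the 7 fibroblast markers to 3357 and 2940 CPM. Cells of cluster 3 with a *Hes1* UMI after thinning (166 control, 220 LPS) were compared with those without one (670 and 706). Before thinning, 325 and 352 cells held a *Hes1* UMI, so the group without one includes cells that had held one. For *Tnnt2*, cardiac troponin T, the ratios of with to without were 1.01 (0.960 to 1.06) in control and 1.01 (0.969 to 1.05) in LPS cells. For *Col1a1*, a collagen gene of fibroblasts, the ratios were 0.820 (0.748 to 0.899) and 0.756 (0.687 to 0.830), and for *Dbh* they were 1.08 (0.502 to 2.15) and 0.944 (0.493 to 1.71). The median share of mitochondrial UMIs was 17.9% and 17.3% in cluster 3, and no more than 4.13% in control clusters 0, 2, 4, 5 and 6.

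*Heyl* (ENSRNOG00000015318), a target of Notch in mural cells, was highest in the pericyte-like cluster 2. Its level there was 50.5 CPM (46.1 to 55.3) in control and 26.7 CPM (23.3 to 30.4) in LPS cells (LPS to control 0.528, 0.448 to 0.620). In control cells this was 4.89-fold (3.98 to 6.04) above cluster 4 and 9.68-fold (8.51 to 11) above cluster 0. Thinned shares of cells of cluster 2 with a *Heyl* UMI were 13.6% (11.7 to 15.7) and 6.67% (5.42 to 8.11), or 25.5% and 12.1% without thinning, against 0.286% and 0.688% in endothelial cluster 5 at median depths of 10172 and 8998 UMIs (6854 and 5082 in cluster 2). Fibroblast cluster 0 had 5.22 and 5.11 CPM (ratio 0.980, 0.854 to 1.12). Cluster 4 had 10.3 and 5.86 CPM (ratio 0.566, 0.405 to 0.785), and the pericyte markers in cluster 4 moved the same way, 265 and 172 CPM, a part that was not tested.

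*Hey1* (ENSRNOG00000011593), a target of Notch in arterial endothelium, was close to absent from the counts. It had 7 UMIs in all control cells and 1 in all LPS cells, of which 2 lay in control cells of cluster 4. Its 0 UMIs in LPS cells of cluster 4 allow up to 0.308 CPM. No statement on its response could be made at this depth.

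**Figure D2:**
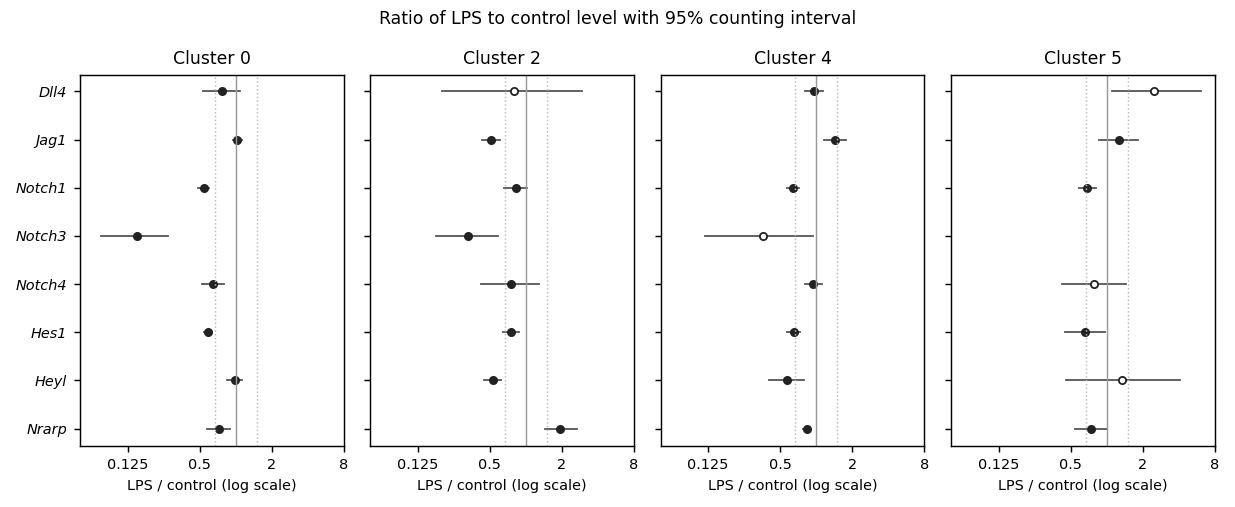
Ratio of the LPS to the control level (x axis, log scale) of 8 members in clusters 0, 2, 4 and 5; bars are 95% counting intervals, dotted lines mark 1.5-fold, filled points have at least 50 UMIs and open points fewer, and *Hey1* is left out for its 8 UMIs. *Notch1* lies below 1 in each panel, while *Nrarp* lies above 1 only in cluster 2, at 1.94.

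Members were then counted against all genes with at least 50 UMIs over both libraries of a cluster, at a difference of 1.5-fold. In cluster 0, 0 of 8 members were higher and 4 lower with LPS (*Notch1*, *Notch3*, *Notch4*, *Hes1*), where 6.92% of all 12247 genes were higher and 19.7% lower. The pericyte-like cluster 2 had 1 of 7 higher (*Nrarp*) and 3 lower (*Jag1*, *Notch3*, *Heyl*), against 5.81% and 13.6% of 8930 genes. Cluster 3 had 0 of 4 past 1.5-fold in either direction, against 4.38% and 5.40% of 8465 genes. In cluster 4, 0 of 7 were higher and 3 lower (*Notch1*, *Hes1*, *Heyl*), against 5.64% and 13.2% of 9492 genes. Cluster 5 had 0 of 4 higher and 1 lower (*Hes1*), against 9.62% and 13.1% of 7824 genes. In cluster 6, 1 of 4 was higher (*Jag1*) and 1 lower (*Notch1*), against 8.80% and 30.8% of 6385 genes.

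The median log2 ratio of the members was -0.54 in cluster 0, where that of all genes was -0.13. It was -0.42 against -0.12 in cluster 2, -0.11 against near 0 in cluster 3, -0.27 against -0.09 in cluster 4, -0.49 against -0.06 in cluster 5 and -0.38 against -0.30 in cluster 6. The median gene was lower in the LPS library, by up to 0.31 on the log2 scale in cluster 6. When levels were scaled to the median gene, the higher share of all genes past 1.5-fold went from 25.9% to 37.5% in cluster 0, from 29.9% to 44.2% in cluster 2, from 29.9% to 40.2% in cluster 4 and from 22.2% to 50.2% in cluster 6. Under that scaling *Heyl* alone of the 7 members in cluster 4 was 1.5-fold lower, and *Jag1* was 1.5-fold higher. Of all 9492 genes there, 664 were then higher and 989 lower.

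Other genes of the pathway were taken from a list of 41, of which 39 are in the gene table. In cluster 0, 33 had enough UMIs, and 4 were higher and 10 lower with LPS, where 6.92% and 19.7% of all genes were. The counts were 3 and 3 of 23 in cluster 2 (5.81% and 13.6% of all genes), 3 and 1 of 22 in cluster 3 (4.38% and 5.40%) and 2 and 8 of 25 in cluster 4 (5.64% and 13.2%). They were 4 and 4 of 21 in cluster 5 (9.62% and 13.1%) and 1 and 6 of 17 in cluster 6 (8.80% and 30.8%). On the higher side, *Rbpj*, the DNA-binding partner of the receptor fragment, had ratios of 2.42 (2.26 to 2.59) in cluster 0, 1.53 (1.27 to 1.86) in cluster 2, 1.96 (1.5 to 2.56) in cluster 3, 1.87 (1.34 to 2.62) in cluster 5 and 1.93 (1.63 to 2.3) in cluster 6, and 1.26 (1.01 to 1.57) in cluster 4. The protease *Adam17* was past 1.5-fold in clusters 0, 2, 3, 4 and 5, with ratios from 1.70 to 2.37. *Psen2*, a catalytic subunit of γ-secretase, was at 24.5 CPM in control and 56.9 CPM in LPS cells of cluster 4 (ratio 2.32, 2.00 to 2.69) and at 48.7 and 98.7 CPM in cluster 5 (ratio 2.03, 1.71 to 2.40). It was also past 1.5-fold in clusters 0 (ratio 1.75, 1.63 to 1.88) and 2 (1.57, 1.26 to 1.96). Its ratio was 1.45 (1.30 to 1.63) in cluster 3 and 0.891 (0.627 to 1.26) in cluster 6. *Dtx2*, a Deltex ubiquitin ligase, was past 1.5-fold in clusters 0 and 5, at 1.74 and 1.54.

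On the lower side, *Adam10*, the protease that cleaves ligand-bound receptors, had ratios of 0.612 (0.525 to 0.713) in cluster 0, 0.613 (0.482 to 0.777) in cluster 4 and 0.566 (0.366 to 0.866) in cluster 5. *Hes6*, a relative of *Hes1*, was past 1.5-fold lower in each of clusters 0, 2, 3, 4, 5 and 6, from 0.655 (0.559 to 0.766) in cluster 3 to 0.231 (0.154 to 0.336) in cluster 6. *Hey2* was lower in cluster 2, where its level was 21.9 CPM in control and 7.74 CPM in LPS cells (ratio 0.354, 0.263 to 0.469). It was also lower in cluster 0 (ratio 0.338, 0.249 to 0.453), where the ratio of *Heyl* was 0.980, and in cluster 4 (ratio 0.381, 0.192 to 0.712). In cluster 3 its ratio was 0.830 (0.627 to 1.09). The ligand *Jag2* was lower in clusters 0 (ratio 0.538, 0.367 to 0.778) and 4 (ratio 0.621, 0.482 to 0.797). It was higher in cluster 3 (ratio 1.63, 1.10 to 2.41). *Dll1* in cluster 4 went from 41 to 15 UMIs (ratio 0.418, 0.215 to 0.772). Near 1.5-fold but under it were the receptor *Notch2* in cluster 4 (ratio 0.672, 0.530 to 0.849) and *Numbl*, an inhibitor of Notch, in cluster 0 (ratio 0.719, 0.686 to 0.753), while *Numbl* was past it in clusters 4, 5 and 6. The most abundant genes of their classes included *Psenen*, a γ-secretase subunit at 128 and 128 CPM in cluster 0, and *Mfng*, a glycosyltransferase that modifies Notch receptors, at 229 and 194 CPM in cluster 4 (ratio 0.847, 0.798 to 0.900) and 146 and 147 CPM in cluster 5. In cluster 0 *Mfng* had 4.34 and 2.94 CPM.

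**Figure D3:**
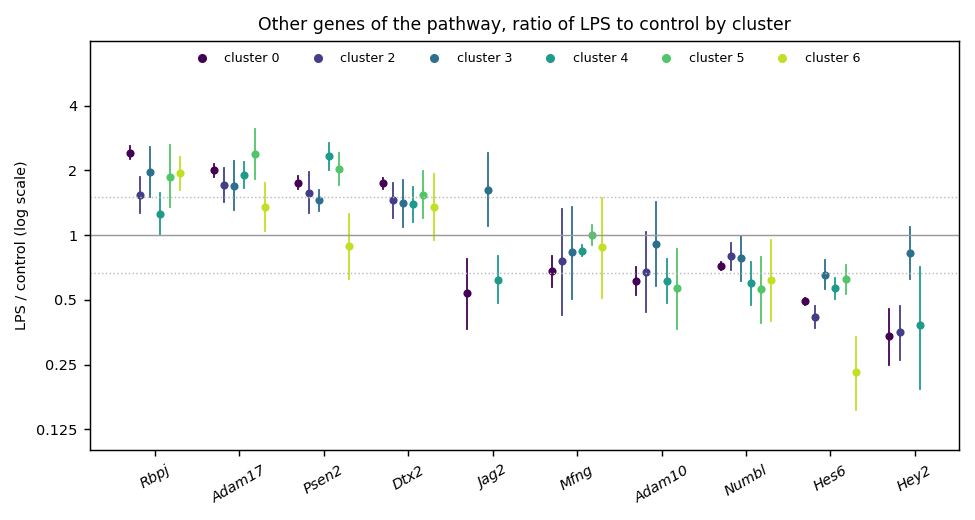
Ratio of the LPS to the control level (y axis, log scale) of 10 other genes of the pathway in clusters 0, 2, 3, 4, 5 and 6 (colours); bars are 95% counting intervals, dotted lines mark 1.5-fold, and clusters with under 50 UMIs of a gene are left out. *Rbpj* lies above 1 in all 6 clusters and *Hes6* below 1 in all 6.

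Within cluster 4, cells with a *Dll4* UMI after thinning (55 control cells and 49 LPS cells) were set beside the cells without one (668 and 747). Before thinning, 182 control and 174 LPS cells of cluster 4 held a *Dll4* UMI. The group without one therefore includes cells that had held one, and the split does not separate cells that express *Dll4* from cells that do not. The cells of a library are not replicates and were chosen by *Dll4*, so the ratios describe these libraries. *Nrarp* was 2.05-fold (1.47 to 2.82) higher in the cells with *Dll4* in the control library and 1.88-fold (1.26 to 2.73) in the LPS library. *Notch1* had ratios of 2.02 (1.14 to 3.40) and 1.78 (0.861 to 3.34), of which only the first interval lies above 1. *Hes1* had ratios of 0.759 (0.340 to 1.48) and 0.431 (0.0876 to 1.30), and for *Notch4* they were 2.14 (0.928 to 4.40) and 1.00 (0.264 to 2.69). Of the genes of arterial endothelium, *Gja4*, a connexin, had ratios of 3.89 (2.96 to 5.07) and 2.41 (1.66 to 3.42), and *Sox17*, an arterial transcription factor, 2.33 (1.75 to 3.05) and 1.28 (0.829 to 1.90). *Gja5*, a further arterial connexin, had ratios of 9.72 (1.93 to 45.1) and 11.4 (1.67 to 67.6), from 9 and 7 UMIs in all. The other arterial genes compared were *Unc5b*, a guidance receptor, with ratios of 2.79 (1.75 to 4.31) and 1.18 (0.528 to 2.32), and *Efnb2*, the arterial ephrin, with 0.651 (0.130 to 2.00) and 1.28 (0.539 to 2.63). *Gja4* and *Gja5* were thus the arterial genes of these 5 with intervals above 1 in both libraries. These genes were not particular to cluster 4. *Gja4* held 126 CPM there and 523 CPM in cluster 5 in control cells, and 107 and 81.1 CPM in LPS cells. The 8 arterial markers summed to 715 and 766 CPM in control clusters 4 and 5, and to 644 and 351 CPM with LPS. *Gja5* held 3.69 CPM in control cells of cluster 4 and 54.5 CPM in cluster 3. Whether the cells with *Dll4* were arterial was not tested. *Cdh5*, a junction protein of all endothelium, had ratios of 1.40 (1.12 to 1.72) and 1.70 (1.38 to 2.09). The median depth before thinning was 12178 UMIs in control cells with *Dll4* and 12512 in those without, and 9834 and 10402 in LPS cells.

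**Figure D4:**
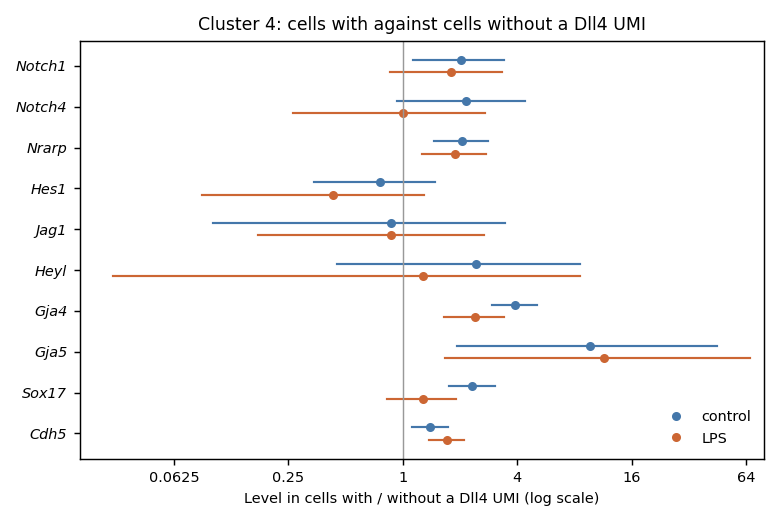
Ratio of a gene's level in cells of cluster 4 with a *Dll4* UMI to that in cells without one (x axis, log scale), in the control and LPS libraries. Each cell was thinned to 3000 UMIs before the split, so the cells without one include some that had held a *Dll4* UMI. Bars are 95% counting intervals. *Nrarp*, *Gja4*, *Gja5* and *Cdh5* lie above 1 with their whole interval in both libraries, and the intervals of *Hes1* include 1.

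Across the 10 clusters with at least 100 cells over both libraries, the level of each member was correlated with those of 9896 genes on a log2 scale, 20 points in all, in which the 2 points of a cluster share its cell type and the points of a library its depth. These values are descriptions. *Nrarp* went with *Notch1* (Pearson r 0.85), *Dll4* (0.85) and *Notch4* (0.81), and *Dll4* with *Notch4* (0.80). *Jag1* and *Heyl* had an r of 0.56, and *Heyl* and *Dll4* of 0.02. The genes most like *Notch1* were *Gja4* (0.95), *Tbc1d9b* (0.94) and *Foxo1* (0.93), those most like *Notch4* were *Sparcl1* (0.96), *Myo10* (0.92) and *Cd320* (0.91), and those most like *Nrarp* were *Tp53i11* (0.93), *Plekhf2* (0.92) and *Tcn2* (0.92). For *Dll4* they were *Git2*, *Pcdh12* and *Rnf185* (0.89 to 0.90), for *Hes1* *Nr1d1* (0.93), *Mmp15* (0.92) and *Fundc2* (0.90), and for *Heyl* *Mark1* (0.87), *Mrvi1* (0.86) and *Gjc1* (0.82). *Jag1* had no gene above 0.78 (*Sin3b*, followed by *Dync1i2* and *Gapvd1*), and *Notch3* and *Hey1*, with under 500 UMIs, were not correlated.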

How the data were processed

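The data are 2 single-cell libraries, 1 of LPS-treated and 1 of saline-treated cells. The deposited values are raw UMI counts per gene and cell, whole numbers made by the authors without normalization, with the authors' cluster number and cell type for each cell. The submitters' processing notes name Cell Ranger 2.2.0 and Seurat 2.3.4, and the genome build and annotation are not given in the sources used here. The 2 control and 8 LPS cells that carry no cluster number were left out, and no other filter was applied. The 9 members, the gene lists and the comparisons were chosen with earlier results of these data known.

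UMIs were summed per cluster and library and divided by all UMIs of the cluster, with scipy 1.17.1, pandas 2.3.3 and numpy 2.4.6 under Python 3.11.15, and drawn with matplotlib 3.10.9. Intervals (95%) are exact: Poisson for levels, binomial conditional on the sum for ratios, and Clopper-Pearson for shares. Where 0 UMIs were counted, 3 UMIs were taken as the upper limit. Control clusters 0 to 6 held between 3114592 and 90500722 UMIs and LPS clusters between 2485786 and 73758241, which sets the width of the intervals. Thinning drew 3000 UMIs per cell without replacement (seed 7), leaving out cells with fewer. The median log2 ratios of members and of all genes were taken with 0.5 UMI added to each sum. Log2 ratios compared between processing settings had none added. Genes were counted as higher or lower at 1.5-fold with at least 50 UMIs over both libraries.

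Named genes were the 9 members, other pathway genes past 1.5-fold or most abundant in their list, of which examples are given, and for each member the 3 genes with the highest Pearson r. No doublet caller was run. Cells with markers of another class, and the 8% of cells with the most UMIs, were left out as alternatives, beside a limit of 10% mitochondrial UMIs, the mean of the cells' own levels, sums without mitochondrial genes, scaling to the median gene, and other folds and minimums. On simulated data for cluster 4, with 200 of 9492 genes given a 4-fold change, 100% passed 1.5-fold and the true ratio lay within 95.6% of the intervals. Counts were drawn as Poisson, the model behind the intervals, without variation between cells or in handling. The simulation therefore checks the calculation only, and changes smaller than 4-fold were not simulated.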

Additional observations from a re-analysis of the deposited data

Results flagged for a closer look

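In 3 members the ratio of LPS to control lay on opposite sides of 1 in different clusters, with counting intervals that exclude 1 on both sides; the difference between the clusters was not tested. *Jag1* was higher with LPS in cluster 4 (ratio 1.43) and the macrophages of cluster 6 (3.88), and lower in fibroblast cluster 1 (0.766) and the pericyte-like cluster 2 (0.508).

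*Hes1* was higher with LPS in cluster 3 (ratio 1.32), and lower in clusters 0 (0.590), 1 (0.555), 2 (0.752), 4 (0.650), 5 (0.659) and 7 (0.454). *Nrarp* was higher in cluster 2 (ratio 1.94) and lower in clusters 0 (0.722) and 4 (0.829). In fibroblast cluster 7 the control library held 12 *Nrarp* UMIs and the LPS library 0 (up to 1.97 CPM), under the minimum of 50 UMIs set for such a comparison.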

How the results depend on the processing

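No paired analysis was possible because a single library stands for each treatment. Of 238 log2 ratios under 7 alternatives, 224 moved by less than their counting error, 13 moved by more and 1 whose counting interval had lain below 0 turned its sign: *Hes1* in cluster 5, 0.27 after thinning. The sign also changed in 11 values whose interval had included 0, among them *Heyl* in cluster 0 (0.21 after thinning, against -0.03) and in cluster 3 (1.64 against -0.07, without cells over 10% mitochondrial UMIs). Of 80 counts of members past the threshold, 64 stayed within 1.5 times and 16 did not. The counts below describe the settings only and have no share of all genes beside them, except under scaling to the median gene. At 2-fold, 1 member was lower in cluster 0, 0 higher and 1 lower in cluster 2, 0 lower in cluster 4 and 0 lower in cluster 5. With at least 200 UMIs, 0 were higher in cluster 2 and 0 lower in cluster 5, and with at least 20 UMIs 1 was higher in cluster 5 (*Dll4*). Scaled to the median gene, 1 was higher and 1 lower in cluster 4 and 0 lower in cluster 5. Of all genes, 664 of 9492 were then higher and 989 lower in cluster 4, and 894 of 7824 were lower in cluster 5. In cluster 4, 1 was higher under the mean of the cells' own levels, without the 8% of cells with the most UMIs and after thinning. In cluster 5, 0 were lower after thinning and without cells over 10% mitochondrial UMIs. Apart from what the settings themselves change, the cause was not tested. The alternatives for clusters 3 and 6 were added after the data had been seen. Without cells over 10% mitochondrial UMIs, which left 55 of 836 control and 85 of 929 LPS cells of cluster 3, the log2 ratio of *Hes1* there was 0.77, against 0.41. Shares of cells moved with depth in 43 of 44 values. Low counts limit *Hey1*, *Notch3* outside clusters 0 and 2, and *Dll4* outside cluster 4.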
